A study of Danio rerio with 32 samples.

Results

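Voltage-gated calcium channel subunit genes were examined in spinal V2a interneurons of adult zebrafish before and after spinal cord injury. A gene was taken as a member when its zebrafish symbol began with cacna1, cacna2d, cacnb or cacng and it was above 0 in any library. This rule gave 50 of the 42370 genes in the table, of which 31901 carry Ensembl IDs. The members comprised 13 high-voltage activated alpha1 genes, 5 low-voltage activated alpha1 genes, 9 alpha2delta genes, 7 beta genes and 16 gamma genes.

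All fish carried a transgene in which GFP marks V2a interneurons, the excitatory premotor neurons of the locomotor network. Cells from spinal segments 1 to 7 were sorted by fluorescence. Traced cells (D) held GFP and rhodamine dextran, a tracer applied so that axons carried it back to the cell body. Untraced cells (G) held GFP alone. In injured fish the traced cells were those that had regrown an axon past the lesion. Cells that had not regrown one were untraced there, so a group before and after injury need not hold the same kinds of V2a cell. In differences between injured and uninjured groups, change within cells and this selection cannot be told apart. The groups were D3W and D8W (traced, 3 and 8 weeks after injury, 5 and 6 libraries) against Dcon (traced, uninjured, 5 libraries). The untraced groups were G3W and G8W (5 libraries each) against Gcon (uninjured, 6 libraries). Tissue came from 20 fish per condition. Whether libraries of 1 group came from separate fish is not given in the sources used here, so p-values measure the spread between these libraries, which may be partly technical.

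Voltage-gated calcium channels turn depolarisation of the membrane into calcium entry. The alpha1 subunit forms the pore and sets the channel type, alpha2delta and beta subunits bring the pore to the membrane and tune its gating, and most gamma proteins of neurons instead act as partners of AMPA-type glutamate receptors. In motor circuits these channels trigger transmitter release, shape firing and couple activity to transcription. The roles given below are known mainly from mammals.

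Levels are FPKM, the fragments of a gene relative to its length and to the depth of its library. Library totals inferred from the steps between low values were 9.42 to 27.74 M fragments, so 3 fragments in a gene of 1 kb were worth 0.1081 to 0.3185 FPKM. Such limits cover counting error only. Transcripts typical of other cells were found: 9 oligodendrocyte and Schwann cell genes summed to 2100 to 22600 FPKM across the 32 libraries. Whether they came from whole cells was not tested. Markers of other neurons were present too. The 8 motor neuron genes summed to 1.78 to 658 FPKM and the 5 inhibitory neuron genes to 1.43 to 251 FPKM. Skeletal muscle genes, 20 in all, summed to no more than 32.1 FPKM. D3W replicates 3 and 5 stood apart, with 7755 and 8710 genes at 1 FPKM or more against 10929 to 18414 in the other libraries. They also had the fewest channel genes above 0, at 17 and 15 of 50, against 26 to 43 elsewhere.

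Single libraries varied widely for these genes. Of the values of the 37 members that could be tested, because at least 5 libraries reached 1 FPKM, 17.1% were 0, against 26.8% over all tested genes. In 37 of 222 combinations of gene and group, a library listed at 0 stood beside a library of the same group at 10 FPKM or more. CACNG5 (ENSDARG00000003326) had 61.3 FPKM, about 5176 inferred fragments, in Gcon replicate 1 and was listed at 0 in Gcon replicate 3. The coefficient of variation within a group had a median of 80.1% and ran from 14.7 to 213%. Group means below are to be read against that spread.

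**Figure D1:**
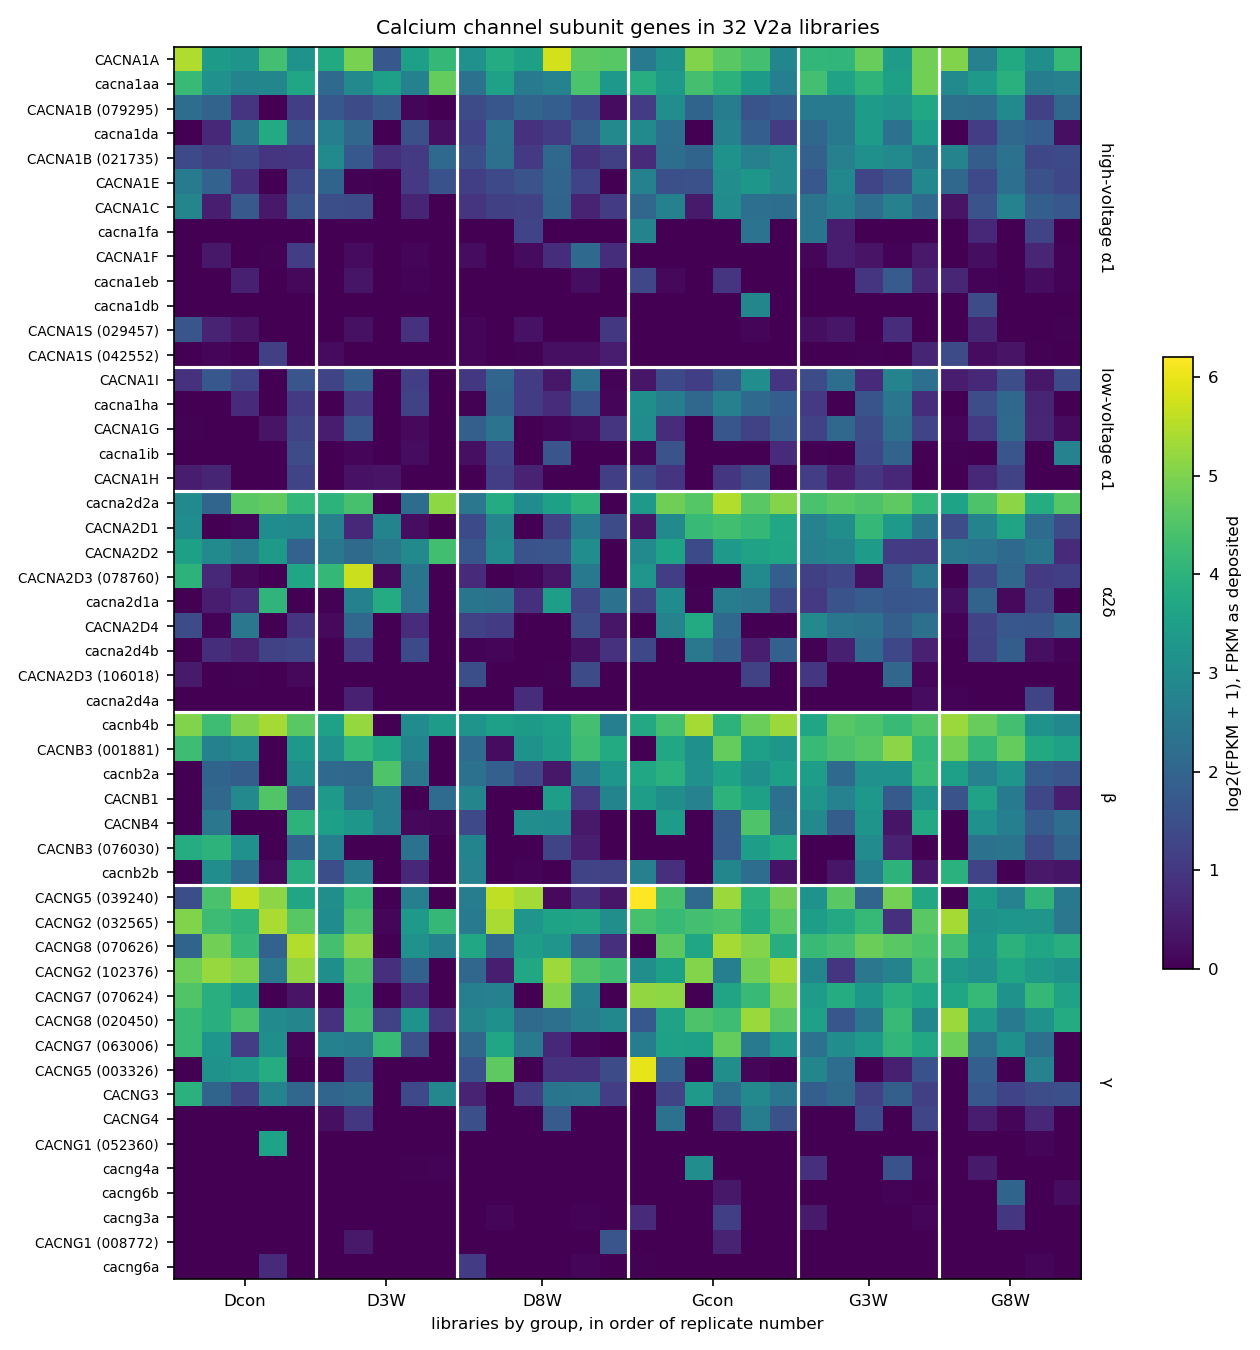
Level of each of the 50 channel genes (rows, by subunit class and then by mean) in each of the 32 libraries (columns, by group), coloured by log2(FPKM + 1). Genes whose symbol is shared by 2 Ensembl IDs carry the last 6 digits of the ID. CACNA1A and cacna1aa are coloured in every library, while most rows hold dark cells beside bright ones within a group.

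Averaged over the 32 libraries, the highest levels per length belonged to cacnb4b (19.2 FPKM), cacna2d2a (17.6 FPKM) and CACNA1A (17.4 FPKM). CACNG5 (ENSDARG00000039240, 16.5 FPKM), CACNG2 (ENSDARG00000032565, 16.1 FPKM), CACNG8 (ENSDARG00000070626, 15.5 FPKM) and CACNG2 (ENSDARG00000102376, 14.7 FPKM) followed. Every class had a member above 10 FPKM except the low-voltage activated alpha1 class, whose highest mean was 1.73 FPKM. Only 5 members were above 0 in all 32 libraries: CACNA1A, cacna1aa, CACNA1B (ENSDARG00000021735), CACNG2 (ENSDARG00000032565) and CACNG8 (ENSDARG00000020450).

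Among high-voltage activated pore genes, the cacna1a pair led in every group. CACNA1A and its paralogue cacna1aa encode P/Q-type pores, which drive fast transmitter release. CACNA1A averaged 17.7 ± 15.1 FPKM in Dcon, 14.3 ± 10.3 in D3W and 22.0 ± 17.0 in D8W (SD, n = 5, 5 and 6). In untraced cells it averaged 15.6 ± 11.0 FPKM in Gcon, 19.2 ± 7.67 in G3W and 14.8 ± 10.5 in G8W (SD, n = 6, 5 and 5). These 6 means lay within 1 SD of one another. The cacna1aa means ran from 8.15 ± 3.81 FPKM in G8W to 16.9 ± 7.45 FPKM in G3W (SD, n = 5 each). Together the pair made up 36.0 to 88.4% of the summed FPKM of the class, with a mean of 62.2%. Within the pair CACNA1A held 17.6 to 90.4% of the level, so either paralogue could lead in a library. The share of the pair in the class was 73.5 ± 16.7% in D3W and 66.0 ± 7.26% in Dcon, and 53.3 ± 8.96% in G3W and 51.3 ± 18.0% in Gcon (SD).

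The other high-voltage pores were lower. The N-type pore gene CACNA1B was present as 2 Ensembl genes with means of 3.31 FPKM (ENSDARG00000079295) and 3.24 FPKM (ENSDARG00000021735), and cacna1b genes made up 14.6% of the class on average. The gene ENSDARG00000021735 averaged 1.27 ± 0.308 FPKM in Dcon, 2.86 ± 2.45 in D3W and 2.02 ± 1.24 in D8W, and 4.65 ± 2.71 in Gcon, 5.48 ± 1.90 in G3W and 3.13 ± 1.82 in G8W (SD, n = 5 or 6). Its highest mean was in G3W and its lowest in Dcon. The L-type gene cacna1da, whose product opens at low voltages for its class, averaged 3.29 FPKM over all libraries. CACNA1E, the R-type pore, averaged 2.75 FPKM and CACNA1C, the L-type pore linked to activity-dependent transcription, 2.57 FPKM. The photoreceptor and muscle types were low. cacna1fa averaged 0.564 FPKM and was above 0 in 7 libraries, with 5 libraries at 1 FPKM or more. CACNA1F had a mean of 0.274 FPKM, and the 2 CACNA1S genes, the skeletal muscle pore, had means of 0.223 and 0.157 FPKM. The genes cacna1eb and cacna1db averaged 0.258 and 0.246 FPKM. CACNA1F, cacna1eb, cacna1db and both CACNA1S genes did not pass the filter, which left 8 of 13 genes for testing.

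**Figure D2:**
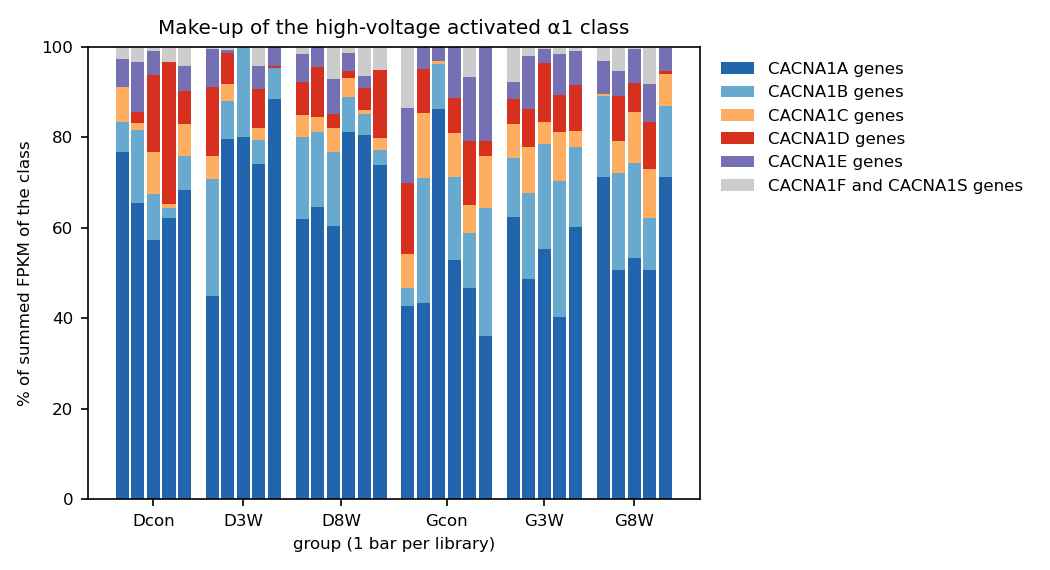
Share of the summed FPKM of the 13 high-voltage activated alpha1 genes held by each pore type (y axis, %), with 1 bar per library and groups along the x axis. The cacna1a pair holds 36.0 to 88.4% of each bar.

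Low-voltage activated (T-type) pores open near rest and support rebound and rhythmic firing. All 5 genes were tested and all were low. Over all libraries CACNA1I averaged 1.73, cacna1ha 1.63, CACNA1G 1.33, cacna1ib 0.649 and CACNA1H 0.501 FPKM. CACNA1I was highest in G3W, at 3.16 ± 2.01 FPKM, and lowest in G8W, at 0.937 ± 0.674 FPKM (SD, n = 5 each). CACNA1G was highest in G3W, at 2.30 ± 1.19 FPKM, and lowest in Dcon, at 0.344 ± 0.617 FPKM (SD, n = 5 each). The summed level of the class had medians of 2.03 FPKM in Dcon, 1.8 in D3W and 3.58 in D8W, and of 10.7 FPKM in Gcon, 6.93 in G3W and 4.07 in G8W. D3W replicate 5 had none of the 5 above 0. Of the T-type genes, cacna1ib was above 0 in 16 libraries and CACNA1H in 21.

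The extracellular alpha2delta subunits raise channel density at the membrane and bind gabapentinoid drugs in some isoforms. cacna2d2a led in the mean over all libraries, with 14.8 ± 9.72 FPKM in Dcon, 14.6 ± 13.7 in D3W, 8.38 ± 5.66 in D8W, 26.6 ± 11.5 in Gcon, 21.1 ± 3.11 in G3W and 20.4 ± 8.9 in G8W (SD, n = 5 or 6). Next came CACNA2D1 (5.86 FPKM over all libraries), CACNA2D2 (5.78 FPKM) and CACNA2D3 (ENSDARG00000078760, 4.42 FPKM). CACNA2D3 rested on few libraries: D3W replicate 2 had 51.3 FPKM, while the median over the 32 libraries was 1.23 FPKM. cacna2d1a, CACNA2D4 and cacna2d4b averaged 3.08, 2.13 and 0.936 FPKM. The second CACNA2D3 gene (ENSDARG00000106018, 0.295 FPKM) and cacna2d4a (0.0877 FPKM) did not pass the filter, leaving 7 of 9 genes.

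Beta subunits are cytoplasmic chaperones that bind the pore between its first repeats and set its gating. All 7 genes were tested. cacnb4b had the highest mean of all 50 genes and was above 0 in 31 libraries. It averaged 28.9 ± 8.33 FPKM in Dcon, 12.7 ± 13.8 in D3W and 10.5 ± 4.62 in D8W, and 25.2 ± 11.6 in Gcon, 19.0 ± 4.57 in G3W and 19.3 ± 12.9 in G8W (SD, n = 5 or 6). Next came CACNB3 (ENSDARG00000001881) at 12.6 FPKM, cacnb2a at 6.44 FPKM, CACNB1 at 5.79 FPKM and CACNB4 at 4.63 FPKM over all libraries. The second CACNB3 gene (ENSDARG00000076030) and cacnb2b averaged 3.18 and 2.95 FPKM and were at 0 in 14 and 8 libraries.

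Over all libraries gamma genes, with 16 members the largest class, held the largest summed level, with a median of 105 FPKM per library. In D3W the gamma median was 37.5 FPKM, below 44.3 for beta and 42.0 for alpha2delta genes. The 10 members of this class that passed the filter and were tested are named for AMPA receptor partners. They were CACNG2, CACNG3, CACNG4, CACNG5, CACNG7 and CACNG8 genes. The CACNG2 product, stargazin, carries AMPA receptors to the synapse and slows their closing. CACNG8 (ENSDARG00000070626), known in mammals as the AMPA receptor partner of forebrain, averaged 19.0 ± 17.5 FPKM in Dcon, 13.3 ± 13.4 in D3W and 6.21 ± 4.56 in D8W, and 20.2 ± 14.6 in Gcon, 21.4 ± 3.85 in G3W and 13.7 ± 3.90 in G8W (SD, n = 5 or 6). CACNG5 (ENSDARG00000039240) averaged 23.5 ± 18.8 FPKM in Dcon, 6.00 ± 7.07 in D3W and 15.5 ± 21.8 in D8W, and 29.2 ± 24.1 in Gcon, 15.1 ± 10.8 in G3W and 7.11 ± 5.86 in G8W. The SD exceeded the mean in D3W for both genes and in D8W for CACNG5, and the SDs of CACNG8 were lowest in G3W and G8W. CACNG4, at 0.673 FPKM over all libraries, was the exception in level. The 6 genes that did not pass the filter were both CACNG1 genes, cacng6a, cacng6b, cacng3a and cacng4a, with means of 0.0616 to 0.349 FPKM. CACNG1 is the gamma subunit of the skeletal muscle channel, and with the 2 CACNA1S genes it was among the lowest members here.

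**Figure D3:**
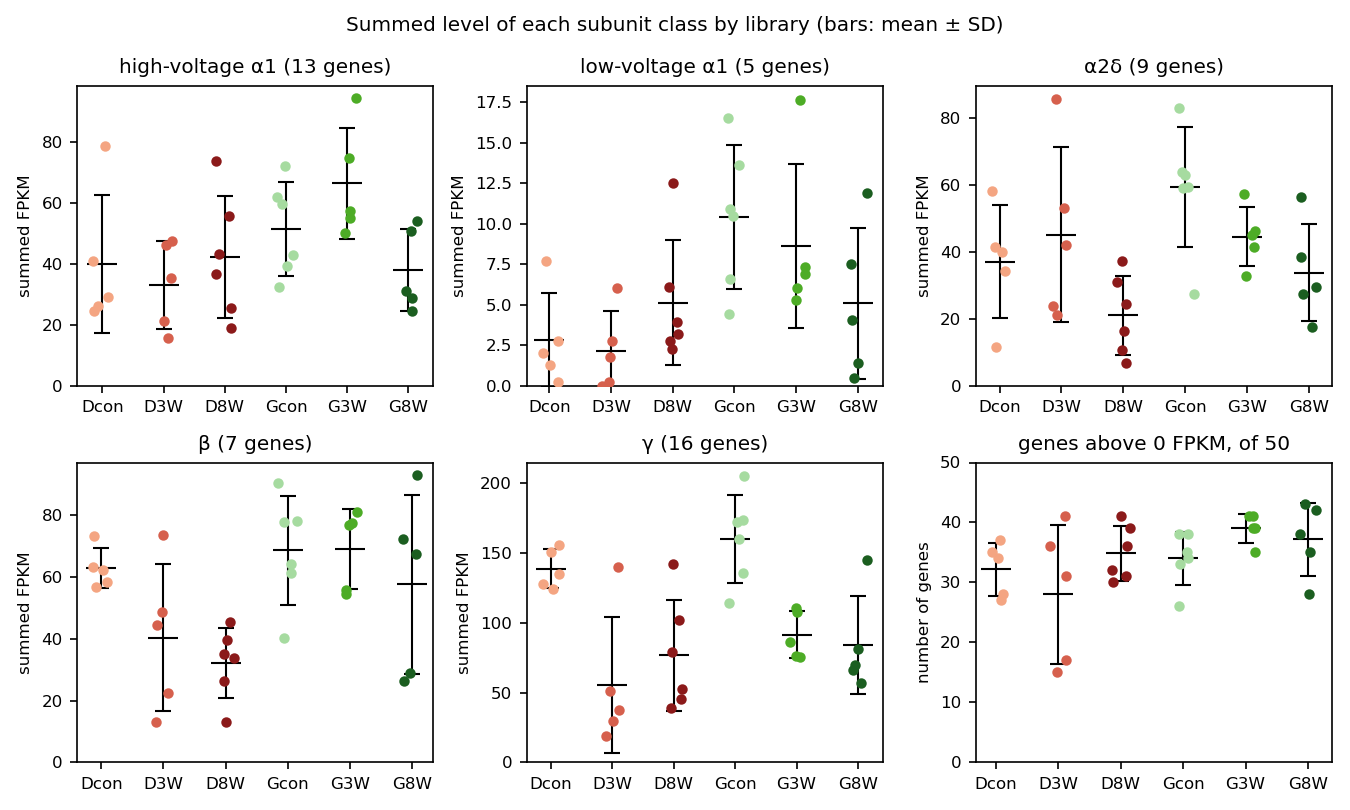
Summed FPKM of the members of each subunit class in each library (points), with the mean and SD of each group as bars, and the number of the 50 genes above 0 FPKM in the last panel. Gamma sums are 124 to 156 FPKM in Dcon and 114 to 205 FPKM in Gcon, and reach below 100 FPKM in each group after injury.

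Differences between groups were tested for 37 genes with limma on log2(scaled FPKM + 1), with p-values adjusted over all 22552 tested genes and a call at an adjusted p under 0.05. Fold changes on this scale understate the change of low genes. A gene was also described as without overlap when every library of a group was above or below every library of the other. No channel gene was without overlap in D3W against Dcon (1.79% of all tested genes were), D8W against Dcon (1.77%) or D8W against D3W (0.306%). The same held for G3W against Gcon (1.25%), G8W against Gcon (1.02%), G8W against G3W (1.29%) and D8W against G8W (1.25%). In bulk libraries such as these, fewer cells of a type and less RNA per cell cannot be told apart.

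The first question was how the channel genes of traced neurons stood 3 weeks after injury, in D3W against Dcon. No channel gene passed the test, against 0.789% of all tested genes. An unadjusted p under 0.05 was found for 2 of 37, against 12.5% of all tested genes. The differences that came nearest were in AMPA receptor partners and a beta subunit. CACNG2 (ENSDARG00000102376) had 7.48, 21.3, 0.805, 2.77 and 0 FPKM in D3W, against 27.7, 37.1, 31.9, 4.6 and 35.6 FPKM in Dcon. Only Dcon replicate 4 lay within the D3W range. Its log2 fold change was -2.29 (SE 0.81, 95% interval -3.93 to -0.64, adjusted p = 0.179).

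cacnb4b, whose mammalian counterpart CACNB4 is a main beta subunit of P/Q-type channels, had 10.7, 36.2, 0, 6.98 and 9.51 FPKM in D3W, against 31.7, 18.4, 31.1, 40 and 23.4 FPKM in Dcon. D3W replicate 2 was within the Dcon range and the other 4 D3W libraries were below it. The log2 fold change was -1.57 (SE 0.622, adjusted p = 0.249). The other CACNG2 gene (ENSDARG00000032565) had 7.08, 20.5, 0.0554, 9.31 and 16.5 FPKM in D3W, against 31.7, 18.1, 15.7, 41.4 and 22.9 FPKM in Dcon. D3W replicates 2 and 5 overlapped the Dcon range, and the log2 fold change was -1.40 (adjusted p = 0.406).

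Described by class, the gamma genes had a median log2 fold change of -1.27 in D3W against Dcon, and 8 of 10 were negative, beside a median of 0.01 over all tested genes. The other class medians lay between -0.20 and 0.02. The gamma median was -1.50 on the FPKM as deposited and -0.98 after quantile normalization. Without D3W replicates 3 and 5, the libraries with the fewest genes, it was -0.66. Summed gamma FPKM were 51.3, 140, 19.1, 37.5 and 29.4 in D3W, against 135, 151, 156, 128 and 124 in Dcon. D3W replicate 2 alone reached the Dcon values. The 13 genes of the V2a and neuron marker list, dominated by SNAP25, summed to 2220 to 6200 FPKM in D3W and 5300 to 8300 FPKM in Dcon. By fold change these neuron markers had a median of -0.62, and 5 of 11 tested had an unadjusted p under 0.05. Astroglia and ependymal markers had a median log2 fold change of 1.90, with 1 of 10 called higher and 5 with an unadjusted p under 0.05. Oligodendrocyte and Schwann cell markers had a median of 1.65, with 0 of 9 called by limma and 4 at an unadjusted p under 0.05. Microglia and macrophage markers summed to 353 to 11800 FPKM in D3W and 93.3 to 1230 FPKM in Dcon, a sum dominated by apoeb, while their median log2 fold change was -0.34 (0 of 9 called, 2 at an unadjusted p under 0.05). Per 1000 FPKM of neuron markers, the gamma sum was 6.66 to 29.7 FPKM in D3W and 16.2 to 24.1 FPKM in Dcon, so the groups overlapped on that scale. The part of cell make-up in the gamma values was not tested.

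Pore genes differed in both directions at this time, with medians of -0.07 for high-voltage and -0.16 for low-voltage genes. Of the 8 tested high-voltage genes, 2 were positive and 5 were negative. The log2 fold change was 0.74 for CACNA1B (ENSDARG00000021735, 95% interval -0.26 to 1.73) and -0.61 for CACNA1C (95% interval -1.64 to 0.43). That of the other CACNA1B gene (ENSDARG00000079295) is not given here, so 0.74 does not stand for the N-type pore genes together. CACNA1A had 12.5, 30.2, 2.19, 10.3 and 16.5 FPKM in D3W, against 43.3, 9.4, 8.23, 19.4 and 8.02 FPKM in Dcon, with a log2 fold change of -0.01 (SE 0.639). Its 95% interval, -1.31 to 1.28, leaves room for changes of more than 2-fold in either direction, so these libraries do not show that it was unchanged. The largest positive log2 differences, each with an unadjusted p above 0.05, were 1.00 for cacnb2a and 0.86 for cacna2d1a. Both had their highest D3W value in replicate 3, which stood apart. For cacnb2a it was 21.4 FPKM, against 0 to 4.54 in the other D3W libraries and 0 to 7.22 in Dcon. For cacna2d1a it was 13.1 FPKM, against 0 to 5.58 in the other D3W libraries and 0 to 15.7 in Dcon.

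**Figure D4:**
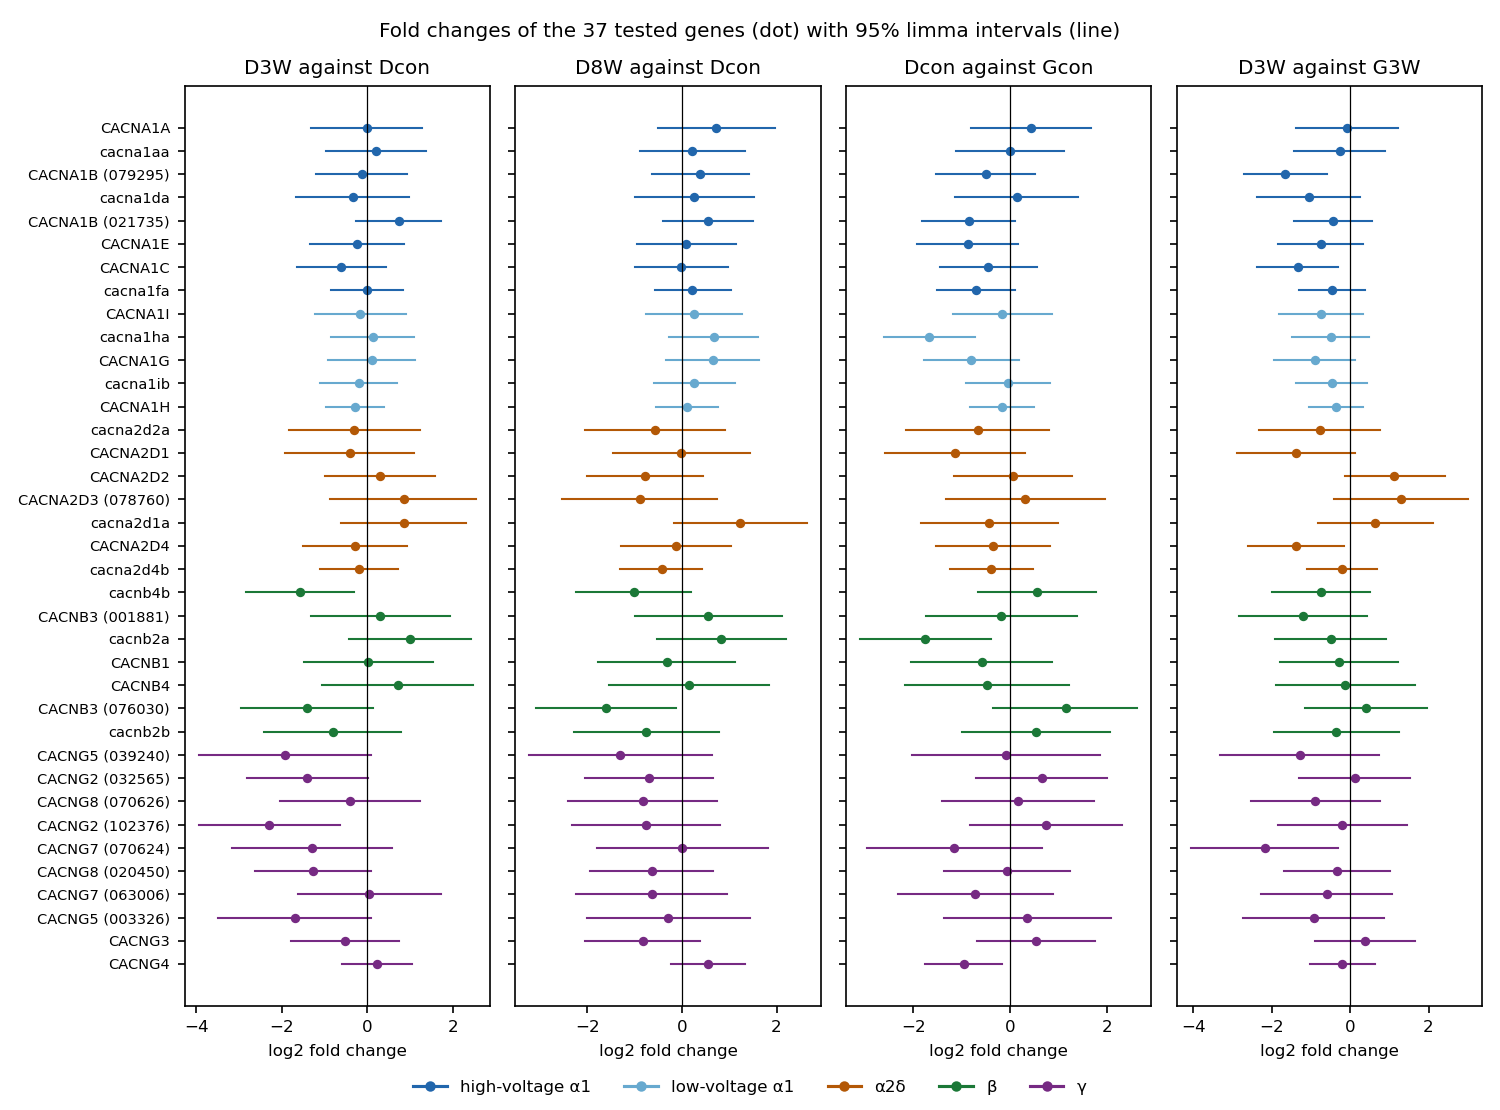
Log2 fold change (dots) and 95% limma interval (lines) of the 37 tested channel genes, coloured by class, in 4 comparisons. Most intervals span 0. The gamma genes lie mostly left of 0 in D3W against Dcon, and the 8 high-voltage alpha1 genes lie left of 0 in D3W against G3W (6 of 8 after quantile normalization).

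At 8 weeks, in D8W against Dcon, no channel gene passed the test, against 0.0621% of all genes, and 1 of 37 had an unadjusted p under 0.05, against 10.8% of all genes. This was the second CACNB3 gene (ENSDARG00000076030), with a lowest value of 0, a median of 0.218 and a highest of 5.92 FPKM in D8W. In Dcon it had 13.2, 15.1, 7.75, 0 and 2.93 FPKM, so the groups overlapped. Its log2 fold change was -1.61 (SE 0.732, adjusted p = 0.426). For cacnb4b, D8W had 5.44 to 19.2 FPKM with a median of 9.86, against 18.4 to 40 FPKM with a median of 31.1 in Dcon. Only D8W replicate 5 reached into the Dcon range, and the log2 fold change was -1.02 (SE 0.596, adjusted p = 0.547). cacna2d1a was on the other side, at 4.14 ± 3.32 FPKM in D8W and 3.36 ± 6.91 FPKM in Dcon (SD, n = 6 and 5), with a log2 fold change of 1.23 (adjusted p = 0.53).

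The beta class as a sum did not overlap at 8 weeks. Summed beta FPKM were 13.2 to 45.4 in D8W and 56.8 to 73.3 in Dcon. cacnb4b made the largest part of it. Neuron marker sums did not overlap either, at 2390 to 4840 FPKM in D8W and 5300 to 8300 FPKM in Dcon. Per 1000 FPKM of those markers the beta sum was 3.26 to 15.3 FPKM in D8W and 7.26 to 13.1 FPKM in Dcon, which overlapped. SNAP25 (ENSDARG00000020609), which dominates the marker sums, itself averaged 1920 ± 650 FPKM in D8W and 3800 ± 1290 FPKM in Dcon (SD, n = 6 and 5). The part of cell make-up in the beta values was not tested. By fold change, 4 of the 7 beta genes were negative, with a median of -0.32, which ran from -0.86 to 0.04 over the alternative settings. The gamma genes had the lowest class median, -0.67 with 8 of 10 negative, and it ran from -1.05 to -0.55 over the alternatives. Their sum was 38.7 to 142 FPKM in D8W and 124 to 156 FPKM in Dcon, and per 1000 FPKM of neuron markers 16.2 to 35.1 FPKM in D8W and 16.2 to 24.1 FPKM in Dcon. The alpha2delta genes had a median of -0.43, with 6 of 7 negative, and the high-voltage pores one of 0.24, with 7 of 8 positive. For the high-voltage pores 5 of 8 were positive on the FPKM as deposited (median 0.09) and after quantile normalization (median 0.05). Astroglia and ependymal markers had a median log2 fold change of 1.62, with 1 of 10 called higher. Low-voltage pore genes were all positive (5 of 5, median 0.26), beside a median of 0.19 over all tested genes, but 3 of 5 after quantile normalization.

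Between the injured traced groups, D8W against D3W, no channel gene passed, against 0.0399% of all genes, and 1 of 37 had an unadjusted p under 0.05, against 9.18% of all genes. CACNA2D3 (ENSDARG00000078760) had a lowest value of 0, a median of 0.181 and a highest of 4.66 FPKM in D8W, against 16.6, 51.3, 0.105, 4.32 and 0 FPKM in D3W. Only D3W replicates 1 and 2 were above the D8W range, and the difference was -1.74 on the log2 scale (SE 0.807, adjusted p = 0.517). CACNG2 (ENSDARG00000102376) was on the other side at 15.8 ± 13.9 FPKM in D8W and 6.47 ± 8.79 FPKM in D3W (SD, n = 6 and 5), with a log2 fold change of 1.53 (adjusted p = 0.555). CACNA2D2 had a log2 fold change of -1.08 (adjusted p = 0.593). By class, 7 of 10 gamma genes (median 0.63), 7 of 8 high-voltage (0.43) and 5 of 5 low-voltage pore genes (0.46) were positive. After quantile normalization these medians were 0.18, 0.12 and 0.45. The alpha2delta and beta medians were -0.24 and -0.17, each with 4 of 7 negative. Over all tested genes the median was 0.15. The D3W libraries are those compared with Dcon above.

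Untraced neurons were compared in the same way. In G3W against Gcon no channel gene passed, against 0.0931% of all genes, and 1 of 37 had an unadjusted p under 0.05, against 7.01% of all genes. That gene was the T-type pore gene cacna1ha, with 1.07, 0, 2.06, 4.37 and 0.763 FPKM in G3W, against 2.64 to 7.53 FPKM with a median of 4.31 in Gcon. All G3W libraries but replicate 4 were below the Gcon range, and the log2 fold change was -1.05 (SE 0.461, adjusted p = 0.643). CACNA1B (ENSDARG00000079295) averaged 7.97 ± 3.13 FPKM in G3W and 3.47 ± 2.27 FPKM in Gcon (SD, n = 5 and 6), with a log2 fold change of 1.00 (adjusted p = 0.718). Gamma genes were negative in 9 of 10 cases with a median of -0.49, beside 0.14 over all genes. Their sum was 75.7 to 111 FPKM in G3W and 114 to 205 FPKM in Gcon, without overlap. Neuron marker sums were 3810 to 4880 FPKM in G3W and 4330 to 6960 FPKM in Gcon. Per 1000 FPKM of those markers the gamma sum was 15.7 to 29.1 FPKM in G3W and 24.0 to 41.7 FPKM in Gcon.

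In G8W against Gcon no channel gene passed, against 0.031% of all genes, and 1 of 37 had an unadjusted p under 0.05, against 6.28% of all genes. It was again cacna1ha, with 0, 1.74, 3.3, 0.549 and 0 FPKM in G8W and the Gcon values given above. G8W replicate 3 was within the Gcon range. The log2 fold change was -1.30 (SE 0.461, 95% interval -2.23 to -0.36, adjusted p = 0.556). All 7 alpha2delta genes were negative, with a median of -0.56 beside 0.08 over all genes. The gamma genes had a median of -0.60, with 8 of 10 negative, which ran from -0.83 to -0.46 over the alternatives. Per 1000 FPKM of neuron markers the gamma sum was 14 to 31 FPKM in G8W and 24.0 to 41.7 FPKM in Gcon. Microglia and macrophage markers had a median log2 fold change of 1.30, with 0 of 9 called by limma and 3 at an unadjusted p under 0.05, and their part in these values was not tested. CACNG5 (ENSDARG00000039240) averaged 7.11 ± 5.86 FPKM in G8W and 29.2 ± 24.1 FPKM in Gcon (SD, n = 5 and 6), with a log2 fold change of -1.63 (adjusted p = 0.86). The comparisons of G3W and of G8W share the Gcon libraries.

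In G8W against G3W no channel gene passed, against 0.00443% of all genes, and 1 of 37 had an unadjusted p under 0.05, against 3.17% of all genes. It was cacna1da, the low-threshold L-type pore, at 0, 1.17, 3.19, 2.61 and 0.199 FPKM in G8W against 3.17, 4.69, 9.72, 4.09 and 9.49 FPKM in G3W. Only G8W replicate 3 reached the lowest G3W value. Its log2 fold change was -1.40 (SE 0.649, adjusted p = 1). All 8 high-voltage pore genes were negative, with a median of -0.53 beside -0.06 over all genes.

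The second question was whether traced and untraced V2a neurons differ. In uninjured fish, Dcon against Gcon, no channel gene passed, against 0.288% of all genes, and 3 of 37 had an unadjusted p under 0.05, against 10.6% of all genes. cacna1ha had 0, 0, 0.672, 0 and 1.07 FPKM in Dcon, against 2.64 to 7.53 FPKM with a median of 4.31 in Gcon. Every Dcon library was below every Gcon library. A level of 3 fragments for this gene corresponds to 0.0294 to 0.0866 FPKM, depending on the library. The log2 fold change was -1.67 (SE 0.461, 95% interval -2.60 to -0.73), and the adjusted p of 0.11 missed the threshold. On the FPKM as deposited, without scaling, the difference was -2.06 and passed (adjusted p = 0.0382), so its call depends on the scaling.

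cacnb2a, a beta subunit that in mammals is prominent in heart and slows inactivation, had 0.0157, 2.98, 2.54, 0 and 7.22 FPKM in Dcon, against 7.62 to 14.5 FPKM with a median of 10.7 in Gcon. These groups did not overlap either. Its log2 fold change was -1.75 (SE 0.669, adjusted p = 0.314). The 2 genes without overlap are 2 of 37, and 1.99% of all tested genes had no overlap in this comparison. CACNG4 was listed at 0 in all 5 Dcon libraries, while Gcon ran from 0 to 5.1 FPKM with a median of 1.4 (adjusted p = 0.346). Among 9 genes of oligodendrocytes and Schwann cells, 4 had an unadjusted p under 0.05 by limma (median log2 fold change -0.95). So did 2 of 9 for microglia and macrophages (1.14) and 1 of 4 for motor neurons (-0.98). Of 11 V2a and neuron markers, 5 had such a p (median 0.04) and 1 was called higher. Astroglia and ependymal genes had 0 of 10 (-0.82). The part of cell make-up in the values of cacna1ha, cacnb2a and CACNG4 was not tested.

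At 3 weeks after injury, D3W against G3W, no channel gene passed, against 1.29% of all genes. An unadjusted p under 0.05 was found for 4 of 37, a share below the 13.4% of all genes. CACNA1B (ENSDARG00000079295), the N-type pore, had 2.27, 1.65, 2.31, 0.0832 and 0 FPKM in D3W, against 4.8, 4.91, 9.69, 8.38 and 12 FPKM in G3W. CACNA1C had 1.82, 1.73, 0, 0.551 and 0 FPKM in D3W, against 4.23, 5.61, 3.65, 5.45 and 3.37 FPKM in G3W. Neither gene overlapped between the groups. The log2 fold changes were -1.65 (SE 0.524, adjusted p = 0.125) for CACNA1B and -1.34 (SE 0.51, adjusted p = 0.222) for CACNA1C. On the FPKM as deposited CACNA1B passed, at -2.1 (adjusted p = 0.0293).

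CACNB3 (ENSDARG00000001881) was the third gene without overlap, at 7.78, 16.2, 12.2, 5.96 and 0 FPKM in D3W against 17.2, 20.5, 23, 33.6 and 16.3 FPKM in G3W. D3W replicate 2 lay just below the lowest G3W library, and the adjusted p was 0.538. These 3 of 37 genes stand beside 5.65% of all tested genes without overlap. CACNG7 (ENSDARG00000070624) was at 0 in 3 D3W libraries and at 0.666 and 17.3 FPKM in the others, against 8.72 to 14.2 FPKM in G3W (log2 fold change -2.18, adjusted p = 0.284). All 8 high-voltage and all 5 low-voltage pore genes were negative, with medians of -0.61 and -0.49. Without D3W replicates 3 and 5, which stood apart, these medians were -0.60 and -0.41. The sum of the neuron markers was 2220 to 6200 FPKM with a median of 2870 in D3W and 3810 to 4880 FPKM with a median of 4390 in G3W. By fold change 2 of 11 were called lower, with a median log2 fold change of -0.40. Summed high-voltage FPKM were 15.6 to 47.5 in D3W and 50.2 to 94.3 in G3W, without overlap. Per 1000 FPKM of neuron markers the high-voltage sum was 5.42 to 19.1 FPKM in D3W and 11.3 to 22.7 FPKM in G3W, which overlapped. The part of cell make-up in these sums was not tested. After quantile normalization 6 of 8 and 4 of 5 were negative, with medians of -0.36 and -0.14, and with a pseudocount of 0.1 the medians were -1.58 and -1.46. The median over all tested genes was itself -0.26. It was -0.58 on the deposited FPKM, 0.00 after quantile normalization and -0.77 with a pseudocount of 0.1.

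**Figure D5:**
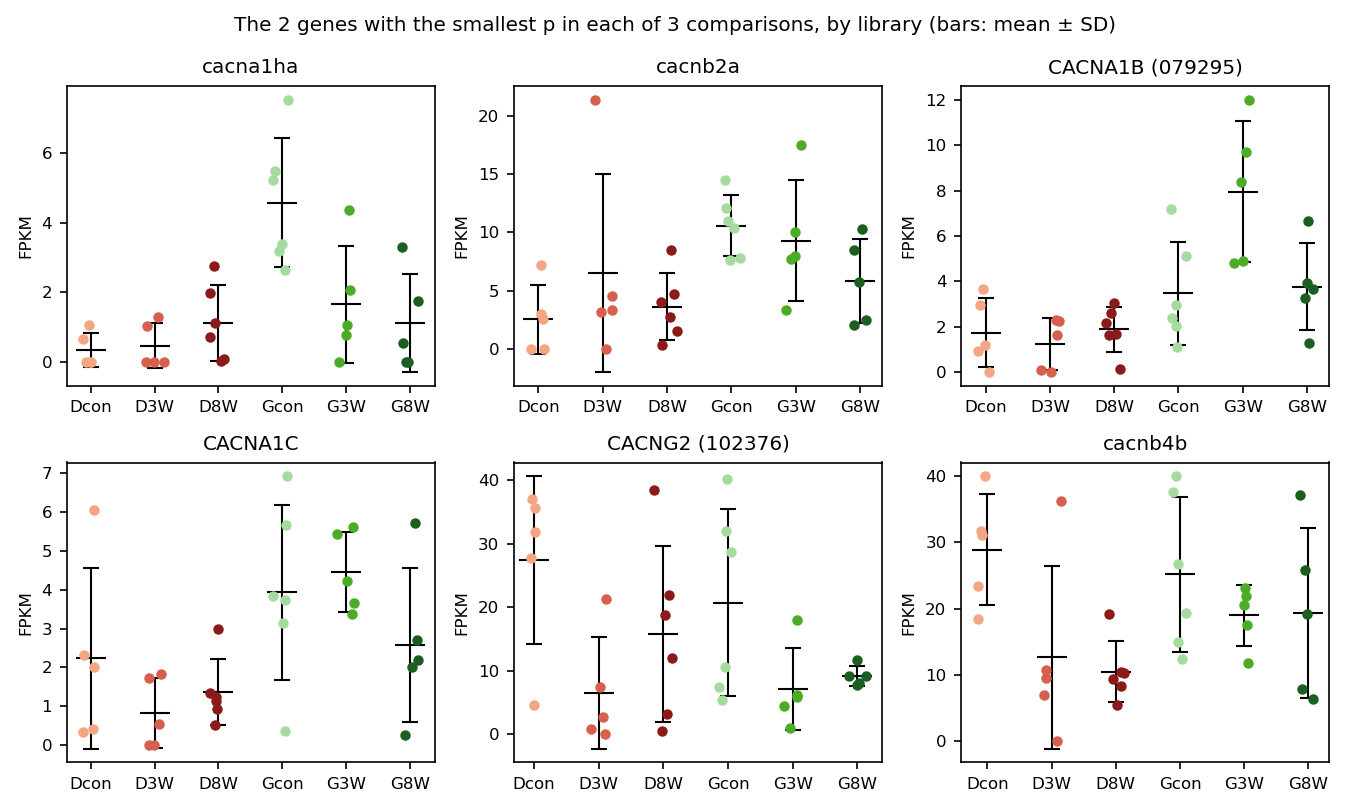
FPKM by library (points) with the group mean and SD (bars) for the 2 genes with the smallest p in each of 3 comparisons: Dcon against Gcon (cacna1ha, cacnb2a), D3W against G3W (CACNA1B, CACNA1C) and D3W against Dcon (CACNG2, cacnb4b). The 5 Dcon libraries lie below all Gcon libraries for cacna1ha, with a highest Dcon value of 1.07 and a lowest Gcon value of 2.64 FPKM.

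At 8 weeks, D8W against G8W, no channel gene passed, against 0.0665% of all genes, and 1 of 37 had an unadjusted p under 0.05, against 6.98% of all genes. cacna2d1a had 0.798 to 10.2 FPKM with a median of 4.03 in D8W, against 0.172, 2.96, 0.11, 1.34 and 0 FPKM in G8W, and the groups overlapped. Its log2 fold change was 1.62 (SE 0.693, adjusted p = 0.639). CACNA1A was at 22.0 ± 17.0 FPKM in D8W and 14.8 ± 10.5 FPKM in G8W (SD, n = 6 and 5; log2 fold change 0.95, adjusted p = 0.817). cacna2d2a had a log2 fold change of -1.12 (adjusted p = 0.819).

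Whether the difference between injured and uninjured groups was unlike in traced and untraced cells was tested as the difference of both differences. This test carries the same limit, since traced cells of injured fish were selected by axon regrowth. At 3 weeks no channel gene passed, against 0.00443% of all genes, and 0 of 37 had an unadjusted p under 0.05, against 5.62% of all genes. The smallest p belonged to cacna1ha, at 1.18 (SE 0.667, adjusted p = 0.901). At 8 weeks no channel gene passed, against 0.0% of all genes, and 3 of 37 had an unadjusted p under 0.05, against 4.55% of all genes. They were cacna1ha at 1.96 (SE 0.652), CACNG4 at 1.30 (SE 0.55) and cacna2d1a at 2.05 (SE 0.98), each with an adjusted p of 0.987. For cacna1ha, traced cells had medians of 0 FPKM in Dcon, 0 in D3W and 0.921 in D8W, while untraced cells had medians of 4.31 in Gcon, 1.07 in G3W and 0.549 in G8W. All 8 high-voltage pore genes had a positive difference at 8 weeks, with a median of 0.56 beside 0.09 over all genes. The low-voltage pores had a median of 0.65, with 4 of 5 positive, and the beta genes one of -0.64, with 4 of 7 negative and a range of -0.84 to -0.14 over the alternatives. At 3 weeks the beta and gamma medians were both -0.73, beside -0.12 over all genes, with 4 of 7 beta and 8 of 10 gamma genes negative. Over the alternatives the beta median ran from -1.14 to -0.11 and the gamma median from -1.23 to 0.02.

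Looking across the 6 groups, the highest group mean was in Gcon for 17 of the 37 tested genes, in G3W for 10, in Dcon for 6, in D3W for 2 and in D8W and G8W for 1 each. The lowest was in D3W and in D8W for 13 each, in Dcon for 6, in G8W for 5 and in neither Gcon nor G3W. These counts are on the FPKM as deposited and share the libraries of each group across genes. On those FPKM the median log2 fold change over all tested genes was -0.31 in Dcon against Gcon. It was -0.58 in D3W against G3W and -0.32 in D8W against G8W. The same counts were not made over all tested genes, so the counts above show no trait particular to channel genes.

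Genes that work with the channels were taken from a list of 77 names in 7 roles, 72 of which matched 112 genes, and 99 were tested. In Dcon against Gcon, 1 was higher and 2 were lower, against 0.288% of all tested genes called. In that comparison 20 of the 99 had an unadjusted p under 0.05 by limma, against 10.6% of all tested genes. SNAP25 (ENSDARG00000020609), a vesicle fusion protein that binds presynaptic channels, averaged 3800 ± 1290 FPKM in Dcon and 2120 ± 725 FPKM in Gcon (SD, n = 5 and 6; log2 fold change 1.14, adjusted p = 0.0497). It kept that call in 4 of 17 alternative settings. CAMK2A, a kinase activated by calcium and calmodulin, averaged 2.99 ± 2.84 FPKM in Dcon and 55.0 ± 34.9 FPKM in Gcon (log2 fold change -3.56, adjusted p = 0.0302, kept in 8 of 17).

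GRIA1 (ENSDARG00000032714), an AMPA receptor subunit that gamma proteins accompany, had 0 to 7.01 FPKM in Dcon and 7.3 to 35.6 FPKM in Gcon, without overlap. Its log2 fold change was -2.94 (adjusted p = 0.00883), and it kept its call in 17 of 17 alternatives, with an adjusted p of up to 0.0467. Of 8 AMPA receptor subunit genes tested here, 1 was called and 2 had an unadjusted p under 0.05 by limma. The second GRIA1 gene (ENSDARG00000021352, 3.81 FPKM over all libraries) was not called. In D3W against G3W, 2 of the 99 listed genes were called, both lower, against 1.29% of all tested genes. An unadjusted p under 0.05 by limma was found for 19 of the 99, against 13.4% of all tested genes. GRIA1 (ENSDARG00000032714) was lower here as well, at 0.673 ± 1.39 FPKM in D3W and 8.38 ± 4.05 FPKM in G3W (SD, n = 5 each). Its log2 fold change was -2.21 (adjusted p = 0.04, kept in 5 of 17). RYR3, a calcium release channel of internal stores, averaged 3.30 ± 2.44 FPKM in D3W and 33.2 ± 15.5 FPKM in G3W (SD, n = 5 each; log2 fold change -2.62, adjusted p = 0.0251, kept in 10 of 17). No listed gene passed in the other 7 comparisons or in either interaction, where 3 to 13 of the 99 had an unadjusted p under 0.05 by limma, against 3.17 to 12.5% of all tested genes. The highest count, 13, was in D8W against G8W, against 6.98% of all tested genes. The lowest, 3, was in G8W against Gcon, against 6.28%.

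Members moved little with one another from library to library. With group means removed, the 666 pairs of tested members had a median Pearson r of 0.04 over the 32 libraries and ran from -0.61 to 0.66. Pairs of other tested genes were not computed, so the low median is not shown to be a trait of channel genes. The genes most like the 3 members with the highest means were mast4 (r = 0.83), ELOVL4 (0.80) and ATL1 (0.80) for cacnb4b. They were sumo3b (0.81), CLVS2 (0.78) and dync1li1 (0.78) for cacna2d2a, and IGSF9B (0.75), neff1 (0.74) and SLC35E4 (0.73) for CACNA1A. These coefficients are a description over libraries that share depth and cell make-up.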

How the data were processed

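RNA from sorted cells was amplified with the SMART-Seq v4 kit for small inputs and sequenced in 32 libraries. The authors deposited 1 table of FPKM. HISAT2 2.0.5, HTSeq 0.9.1 and the build danRer11 are listed, with neither role nor order, per the submitters' processing notes. Symbols came from a table of gene names, and a symbol held by 2 Ensembl IDs is given with its ID.

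Each library's FPKM were scaled by a median-ratio factor from 6387 genes (1 FPKM in 28 libraries or more, pseudocount 0.1), then transformed as log2(value + 1). All 6 groups entered 1 limma fit (3.58.1, under R 4.3.3) with an intensity trend and robust variances. Tests were two-sided, with Benjamini-Hochberg adjustment over the 22552 genes that reached 1 FPKM in 5 libraries or more. This step was tested on simulated data. Changes were added only to genes above a low level, and recovery was required only at the largest change. Recovery of smaller changes was recorded without such a requirement, and its shares are not given here. How often changes of low members would be called was not tested. Class sums, shares and group means use the FPKM as deposited. Library totals, and gene lengths for 45 of 50 members, were inferred from the steps between low FPKM and serve only for depth. Fragments were not counted by molecular identifiers.

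Named with values were the 4 members of each class with the highest mean and the 3 with the smallest p in each comparison. Further members were named after their values were seen, for the lack of overlap or to account for every member. Members and lists were chosen with earlier results of these data known. Alternatives were a pseudocount of 0.1, no filter, no scaling, quantile normalization, only the groups compared, a replicate block, and leaving out libraries. Gene positions and sequences were not used here. The level of 1 gene is not reported here.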

Additional observations from a re-analysis of the deposited data

Results flagged for a closer look

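Among 150 combinations of gene and group, 17 held a single value that stood apart, by a gap to the nearest library above the Dixon limit. Some libraries gave several of these flags. Chance would flag about 1 in 20 combinations if values followed a normal distribution, which these FPKM were not shown to do. Values are FPKM.

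Several low values fell in 2 Gcon libraries. Gcon replicate 3 was lowest for CACNA1C (0.355, nearest 3.14), CACNA2D2 (1.62, nearest 6.68) and CACNG7 ENSDARG00000070624 (0.0, nearest 11.2). Gcon replicate 1 was listed at 0.0 for CACNB3 ENSDARG00000001881 (nearest 8.78) and CACNG8 ENSDARG00000070626 (nearest 13.5). Dcon replicate 4 was lowest for CACNG2 ENSDARG00000102376 (4.6, nearest 27.7), and G3W replicate 1 for cacna2d1a (1.04, nearest 1.98).

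High single values were the more frequent kind. D3W replicate 2 was highest for CACNA1G (2.14, nearest 0.379), CACNG7 ENSDARG00000070624 (17.3, nearest 0.666) and CACNG4 (1.0, nearest 0.192). Dcon replicate 5 was highest for CACNA1G (1.43, nearest 0.249) and cacna1ib (1.68, nearest 0.0), and Dcon replicate 4 for cacna2d1a (15.7, nearest 0.696). D8W replicate 5 was highest for CACNA2D3 ENSDARG00000078760 (4.66, nearest 0.681) and cacnb4b (19.2, nearest 10.4). G3W replicate 3 was highest for CACNB3 ENSDARG00000076030 (6.93, nearest 0.481), and G8W replicate 1 for CACNG2 ENSDARG00000032565 (40.3, nearest 8.36).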

How the results depend on the processing

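The count of called channel genes was 0 in all 11 comparisons and stayed 0 in 207 of 209 alternative results. A result here is 1 comparison under 1 alternative setting, and a single fit can serve several comparisons. The exceptions were both on the FPKM as deposited, without scaling, with 1 gene called in Dcon against Gcon (cacna1ha, -2.06, adjusted p = 0.0382) and 1 in D3W against G3W (CACNA1B ENSDARG00000079295, -2.1, adjusted p = 0.0293). The scaling itself moved the median of all genes in D3W against G3W, to -0.26 with median-ratio factors, -0.58 without scaling and 0.00 after quantile normalization. Leaving out each library in turn gave 139 such results, all with 0 calls, and 0 were called without both D3W libraries with the fewest genes. In 33 named combinations of gene and comparison, 622 of 624 alternatives kept direction and side of the threshold and 0 reversed. Of 1045 alternative class medians, 70 had the opposite sign and 8 moved by more than the median standard error of the class. The gamma median in D3W against Dcon stayed negative, from -1.80 to -0.66.

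With the replicate number as a block, 0 channel genes were called in all 11 comparisons. Libraries with the same number did not deviate together: at most 1 of 5 pairs in a comparison had a correlation over 0.1. Of the called partner genes, SNAP25 in Dcon against Gcon and GRIA1 in D3W against G3W lost their calls under the block (adjusted p = 0.0804 and 0.0618). The low-voltage pores had the lowest class maximum of the mean (CACNA1I, 1.73 FPKM). For that gene 3 fragments were worth 0.0152 to 0.0446 FPKM, depending on the library.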
